A study of Mus musculus with 12 samples.

Results

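The comparison asked what navitoclax added to tumours that already received alisertib. RNA from 3 tumour libraries of the arm given both drugs, called the combination here, was compared with RNA from 3 libraries of the alisertib arm, out of 12 libraries in 4 treatment arms. The members were all libraries of these arms, chosen by the treatment named in their labels, and all genes of the table were used. Every tumour grew from 50000 B16F10 cells, an established mouse melanoma line, placed under the skin of wild-type C57Bl/6 mice. The alisertib arm received 25 mg/kg alisertib alone. The combination arm received the same dose of alisertib together with 100 mg/kg navitoclax. Both were given by mouth once a day for 11 days. The other arms, vehicle and 100 mg/kg navitoclax alone, served to show what navitoclax did without alisertib. The mice and the tumour line were the same in all arms, a single cell line transplanted into hosts with an intact immune system. Whether the 3 libraries of an arm stem from 3 mice is not in the labels, and a p-value here weighs a difference against the spread of libraries, which could be technical.

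Alisertib blocks Aurora kinase A, the mitotic kinase that matures centrosomes and builds the spindle. Tumour cells that fail in mitosis can stop dividing for good and stay alive, a state called senescence. Navitoclax is a BH3 mimetic: it fills the groove in which BCL-2, BCL-xL and BCL-w hold the proteins that trigger cell death, and so frees those proteins to open mitochondria through BAX and BAK. Cells that lean on these guardians die, among them platelets, many senescent cells and some tumour cells, while MCL-1, which navitoclax does not bind, can keep a cell alive. Navitoclax acts on proteins, and RNA from a tumour reports only what the surviving cells transcribe.

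Each of the 6 libraries held 26.9 to 36.7 M reads (M, mega). In combination 3, a pair of ribosomal RNA loci took 73.7% of the reads, against 22.3 and 26.6% in the other combination libraries and 17.0 to 35.4% in the alisertib libraries. Combination 3 was left with 7.08 M reads of other genes, and 3 reads in it stood for a value of 10.9, against 2.29 to 2.81 in the other 5 libraries. Over all genes tested, the log2 values of combination 1 and combination 2 correlated with r = 0.984, and those of combination 3 with them at 0.946 and 0.934. The first principal component of the 6 libraries, with 66.3% of the variance, held combination 3 at 115 and the other libraries at −46.5 to 4.52. Vehicle 2, with 63.3% of reads from the same loci, stood apart in the same way among the other arms. Results are therefore given with combination 3 and without it.

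Adding navitoclax to alisertib gave no gene past the threshold. Of 16993 genes tested with limma on log2(value + 2), 0 had an adjusted p under 0.05 (0%), and the smallest adjusted p was 0.681. At an unadjusted p under 0.05, 596 genes were counted (3.51% of those tested), 263 higher (1.55%) and 333 lower (1.96%) with both drugs. The count models run on recovered reads also called 0 genes, with 615 at an unadjusted p under 0.05 in edgeR with TMM scaling and 867 in DESeq2. Limma-voom with quality weights called 0 as well, with 2702 at an unadjusted p under 0.05 and a smallest adjusted p of 0.0721. The limma count at an unadjusted p under 0.05 moved with single libraries. It was 182 without combination 3, 202 and 240 without alisertib 2 or 1, 1046 without alisertib 3, and 1003 and 1654 without combination 1 or 2. It was also 957 without vehicle 2, which enters only through the shared estimate of the spread.

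What these 6 libraries could have shown is given by the intervals. The 95% interval of the log2 difference lay wholly within ±1, for 8759 genes (51.5%), and for 10715 (63.1%) without combination 3. Among 5085 genes with a mean value of at least 1000, this held for 3909 (76.9%), and for 4772 (93.8%) without combination 3. Among 5676 genes with a mean under 100 it held for only 945 (16.6%). The interval reached a median of 0.66 to either side over all genes and 1.07 in that low group. On reads simulated for this comparison, limma recovered 93% of genes changed 4-fold and 21% of those changed 2-fold, with 13 false calls among 127. The simulation gave every gene the same dispersion (spread between libraries) and changed only genes with a mean of at least 50. Combination 3 had its lower depth there but not its deviating profile. These rates thus check the method and do not describe the real spread of these libraries. By the intervals, for genes with a mean of at least 1000 a difference of 2-fold was mostly outside the interval, while for most low genes it was inside.

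Among the targets of navitoclax, Bcl2 did not separate the arms, and Bcl2l1 and Bcl2l2 had slightly higher means with both drugs. Bcl2 (ENSMUSG00000057329.7; GRCm38 chromosome 1, 106538178 to 106714274, minus strand), which encodes BCL-2, had normalized read counts of 5297, 4916 and 4601 in alisertib 1 to 3 and 5323, 4362 and 5038 in combination 1 to 3. The libraries of both arms interleaved, and the log2 difference was −0.01 ± 0.17 (SE, n = 3 against 3; 95% interval −0.39 to 0.37; limma adjusted p = 0.981). Bcl2l1 (chromosome 2, 152780668 to 152831728, minus strand), which encodes BCL-xL, stood at 4292, 4526 and 4691 with alisertib and at 5385, 4344 and 6333 with both drugs. Combination 2 lay among the alisertib libraries, and the difference was 0.23 ± 0.19 (interval −0.19 to 0.66), or 0.10 without combination 3. Bcl2l2 (chromosome 14, 54883377 to 54888234, plus strand), which encodes BCL-w, was at 1281, 1075 and 1294 with alisertib and at 1436, 1344 and 1332 with both drugs. Its libraries did not overlap, yet the difference of 0.18 ± 0.15 did not pass (adjusted p = 0.682).

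Mcl1 (chromosome 3, 95658788 to 95663176, plus strand), the guardian that navitoclax does not bind, was at 4052, 4396 and 6563 with alisertib and at 6020, 5086 and 26328 with both drugs. The high level was in combination 3 alone, and vehicle 2 was also high, at 15356, against 3947 to 4231 in the other vehicle libraries. The log2 difference was 0.93 ± 0.62 (interval −0.43 to 2.28) and 0.18 without combination 3. Among the killers, Bax (2548, 2822 and 3700 against 3486, 3105 and 3311) and Bak1 (1603, 1614 and 1660 against 1608, 1717 and 1393), which form the pore in mitochondria, overlapped between the arms, with differences of 0.14 ± 0.16 and −0.05 ± 0.14. Bid, the BH3-only protein cut by caspase-8, was at 543, 635 and 618 with alisertib and at 711, 721 and 793 with both drugs, a difference of 0.31 ± 0.20 without overlap (0.26 without combination 3). Bbc3, which encodes the p53-induced BH3-only protein PUMA, was at 748, 668 and 776 against 920, 794 and 1864, also without overlap (0.60 ± 0.31, and 0.23 without combination 3). Neither passed (adjusted p = 0.681 for both).

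Of the anti-apoptotic list 5 of 8 members were tested and 0 passed, with a median log2 difference of 0.18 and 1 member, Bcl2l2, higher without overlap. Of BAX, BAK and the BH3-only proteins 10 of 11 were tested and 0 passed, with a median of 0.15 and 2 members, Bid and Bbc3, higher without overlap. Over all genes tested the median was −0.01. Libraries that do not overlap, all 3 combination values above or all below the 3 alisertib values, were found in 863 genes as higher (5.08%) and 884 as lower (5.2%), 10.3% in either direction. Per kilobase of exon, the mean levels in the combination ran from Mcl1 at 3651 and Bax at 2094 through Bcl2l1 at 1168, Bak1 at 654, Bbc3 at 561 and Bcl2 at 536 to Bcl2l2 at 307. The place of Mcl1 in that order rested on combination 3: with alisertib alone it stood at 1464 per kilobase, below Bax at 1918. Neighbours such as Bbc3 and Bcl2 did not differ beyond their spread. The Bcl2a1 genes, near-identical copies whose reads may be split between them, were low, up to 29.4 for Bcl2a1d in navitoclax 3. Bcl2a1d, the tested copy, was at 9.36, 18.3 and 7.49 with alisertib and at 4.62, 12.8 and 0 with both drugs. Its difference of −1.16 was the lowest of the anti-apoptotic list. Hrk was at most at 7.06, in vehicle 3.

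**Figure D1:**
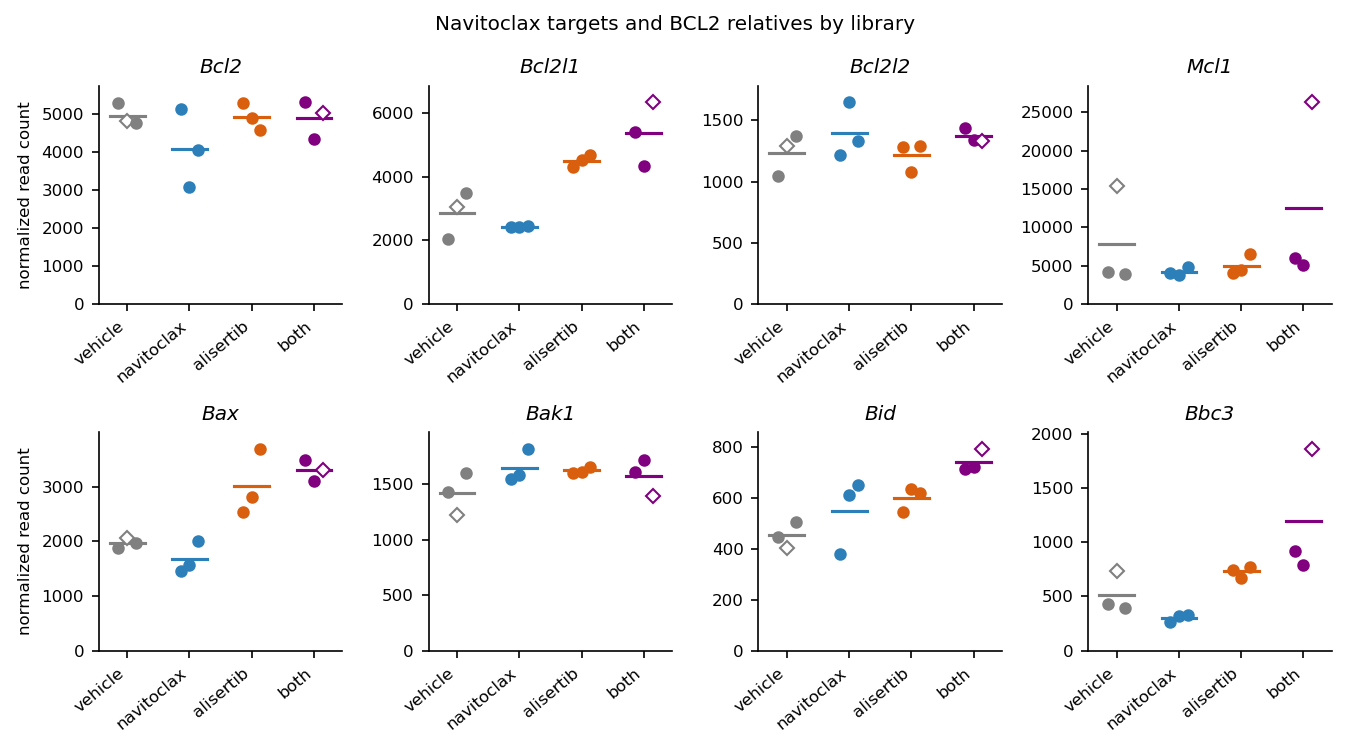
Normalized read counts of 8 BCL2 family genes, on a linear axis from 0, in the 3 libraries of each arm; points are libraries, bars are means, and open diamonds are vehicle 2 and combination 3. Bcl2, Bax and Bak1 overlap between alisertib and both drugs, while the high mean of Mcl1 with both drugs comes from combination 3 at 26328.

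Downstream of the guardians little separated the arms. Of 23 caspase and death receptor genes tested, 0 passed and 2 lay higher without overlap, against 5.08% of all genes, with a median log2 difference of −0.03. These were Apaf1, the scaffold of the apoptosome (2334, 2351 and 2479 against 2562, 2507 and 3297; 0.21 ± 0.16), and Tnfrsf10b, the mouse TRAIL receptor (1705, 1745 and 1853 against 2005, 1936 and 1936; 0.15 ± 0.14). Fas, a death receptor, was at 68.1, 72.6 and 31.8 against 38.8, 50.2 and 7.24, with overlap and with 2 reads in combination 3.

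Of the p53 targets 19 of 20 were tested, 0 passed, and the median difference was 0.16 (0.09 without combination 3). Cdkn1a, which encodes the cell cycle inhibitor p21, stood at 10974, 10260 and 10482 with alisertib and at 12511, 10509 and 14794 with both drugs (0.24 ± 0.20; 0.12 without combination 3). Combination 2 lay within the range of the alisertib libraries. Mdm2, the ubiquitin ligase that degrades p53, was higher without overlap (5614, 5428 and 5288 against 5694, 5738 and 7582; 0.21 ± 0.16). Of 15 senescence genes tested 0 passed, with a median of 0.05, and of −0.08 without combination 3. In that list Cdkn1b, which encodes the inhibitor p27, was lower without overlap (3462, 2982 and 2664 against 2526, 2469 and 2417; −0.29 ± 0.14). Cdkn2a was at 1.70, 3.06 and 2.81 against 11.1, 5.11 and 10.9, values of a few reads. Of 22 secreted inflammatory factors tested 0 passed and 0 were without overlap, with a median of −0.39 (−0.19 without combination 3). Ccl2, a monocyte attractant, was at 194, 313 and 91.7 against 155, 99.6 and 18.1, so alisertib 3 lay within the range of the combination.

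Aurka, the target of alisertib, did not separate the arms (log2 difference 0.06 ± 0.18; interval −0.34 to 0.46). Of 26 mitosis genes tested 0 passed; 20 had a negative difference, with a median of −0.18, and of −0.07 without combination 3. Bub1, a spindle checkpoint kinase, was at 1134, 928 and 830 with alisertib and at 664, 961 and 221 with both drugs, and the lowest value was again combination 3. Of 24 DNA replication genes 0 passed, with a median of 0.03.

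Since no gene passed, the genes named here are the 10 in each direction with the smallest p among named genes whose libraries did not overlap, and none of them passed (adjusted p = 0.681 in limma for all 20). Differences of at least 1 on the log2 scale without overlap were found in 69 genes as higher (0.406%) and 189 as lower (1.11%). The clearest on the higher side was Snhg7os (ENSMUSG00000086775.7; chromosome 2, 26640372 to 26645944, plus strand), an RNA from the strand opposite the small nucleolar RNA host gene Snhg7. Its counts were 383, 315 and 284 in the alisertib libraries and 649, 535 and 829 in the combination libraries. These 3 were the highest of all 12 libraries, since vehicle and navitoclax alone gave 172 to 296. The difference was 1.02 ± 0.26 (interval 0.45 to 1.58), or 0.86 without combination 3. The strand setting of the counting is not given, so reads of Snhg7 itself cannot be kept apart from it.

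Pisd-ps1, a pseudogene of the phosphatidylserine decarboxylase gene, was at 1717, 1453 and 2033 with alisertib and at 3118, 2304 and 3583 with both drugs (0.78 ± 0.21; 0.64 without combination 3). Firre, a noncoding RNA of the X chromosome with a role in nuclear organization, was at 3399, 3096 and 4270 against 5365, 4866 and 6210 (0.62 ± 0.18; 0.52). Abcc10, an ABC transporter of the drug efflux family, had the tightest libraries, at 354, 320 and 312 against 470, 444 and 460 (0.48 ± 0.13; 0.48 without combination 3). The other 6 were the lysosomal peptidase gene Dpp7 (0.65), the collagen gene Col20a1 (0.54), Pick1 (0.53), which encodes a PDZ protein that binds protein kinase C alpha, Carmil3 (0.52), a regulator of actin capping, Haghl (0.51) and Ndor1 (0.40), a diflavin reductase. Without combination 3 these 6 ranged from 0.32 for Ndor1 to 0.50 for Carmil3. With navitoclax alone against vehicle, Abcc10, Col20a1, Haghl, Ndor1 and Pick1 were lower without overlap, against 8.64% of all genes. Their differences ran from −0.75 for Col20a1 to −0.12 for Abcc10, and none passed. The others of the 10 overlapped there.

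The most abundant of the 10 lower genes was Fn1 (ENSMUSG00000026193.15; chromosome 1, 71585520 to 71653200, minus strand), which encodes the matrix protein fibronectin. It stood at 39969, 39463 and 17390 with alisertib and at 17289, 13343 and 11736 with both drugs. Alisertib 3 lay just above combination 1, so the separation from it was slight, while the other alisertib libraries were well above it. The difference was −1.11 ± 0.31 (interval −1.79 to −0.44), or −0.99 without combination 3. Ccn1, a matricellular protein that binds integrins, was at 631, 1051 and 638 against 327, 467 and 409 (−0.92 ± 0.22; −0.94 without combination 3). Fermt2, which encodes the integrin activator kindlin-2, was at 3704, 3461 and 3035 against 2552, 2578 and 2627 (−0.39 ± 0.12; −0.40), with a spread of 38.1 (SD) among the combination libraries. Cnn2, an actin-binding calponin, was at 4111, 4297 and 3753 against 2594, 3123 and 2066 (−0.66 ± 0.20; −0.51).

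Slc4a4, a sodium bicarbonate cotransporter, was at 197, 316 and 104 with alisertib and at 87.8, 94.5 and 36.2 with both drugs (−1.45 ± 0.43; −1.02 without combination 3). Kdelr3, a receptor that returns chaperones to the endoplasmic reticulum, was at 398, 430 and 269 against 202, 204 and 163 (−0.92 ± 0.23; −0.81). Both kept all combination libraries below all alisertib libraries, as the rule required. Fhad1 (−1.14) and the scaffold gene Mpp6 (−0.58) completed the protein-coding genes, beside the ribosomal protein gene Rpl21 (−0.69) and the pseudogene Rps27a-ps2 (−1.07), which share reads with near-identical copies and are uncertain. All 20 kept their sign without combination 3, which the rule fixed in advance. The other combination libraries of these genes also lay wholly above or wholly below the alisertib libraries. With navitoclax alone against vehicle, Kdelr3 and Fn1 were also lower without overlap (−0.92 and −0.74), while Ccn1, Rpl21 and Rps27a-ps2 overlapped.

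Libraries rich in ribosomal reads sat at the ends of these orders. Combination 3 was the highest of its arm in 9 of the 10 named higher genes and in 655 of the 863 higher genes (75.9%), against 41.8% of all genes tested. It was the lowest of its arm in 6 of the 10 named lower genes and in 709 of the 884 lower genes (80.2%), against 46.7% of all genes. Vehicle 2, which is in neither arm, was the highest vehicle library in 570 of the 863 (66.0%) and the lowest in 581 of the 884 (65.7%), against 41.8 and 43.4% of all genes. With the ribosomal share of each library as a covariate, limma also called 0 genes, with 779 at an unadjusted p under 0.05.

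**Figure D2:**
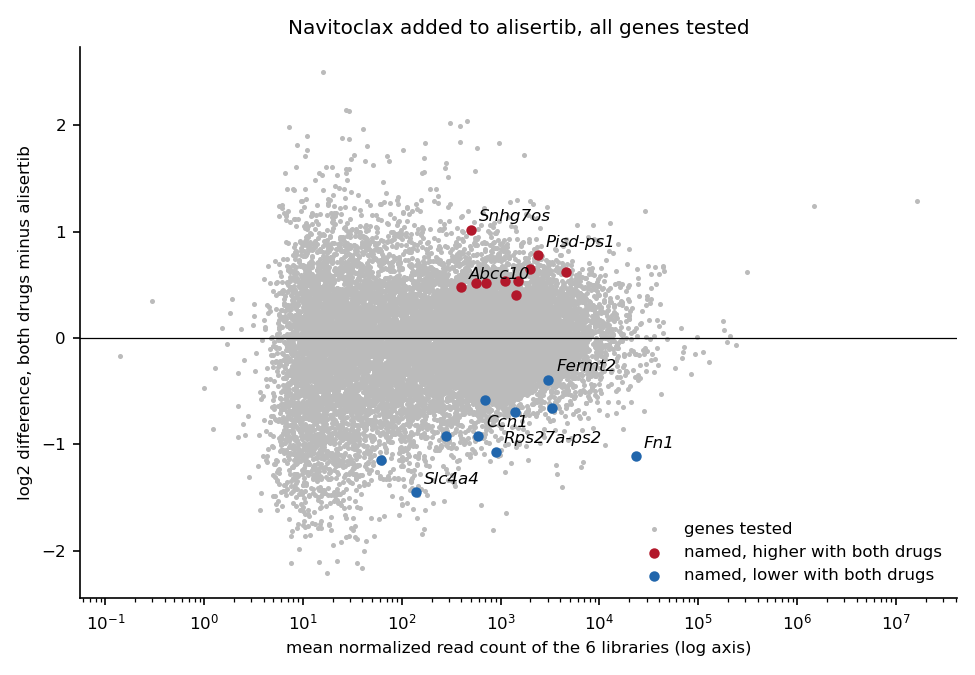
Log2 difference of both drugs minus alisertib against the mean normalized read count of the 6 libraries (log axis), for the 16993 genes tested with limma; red and blue mark the 10 named genes in each direction. None passed, and 16160 genes (95.1%) differed by less than 1 on the log2 scale.

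**Figure D3:**
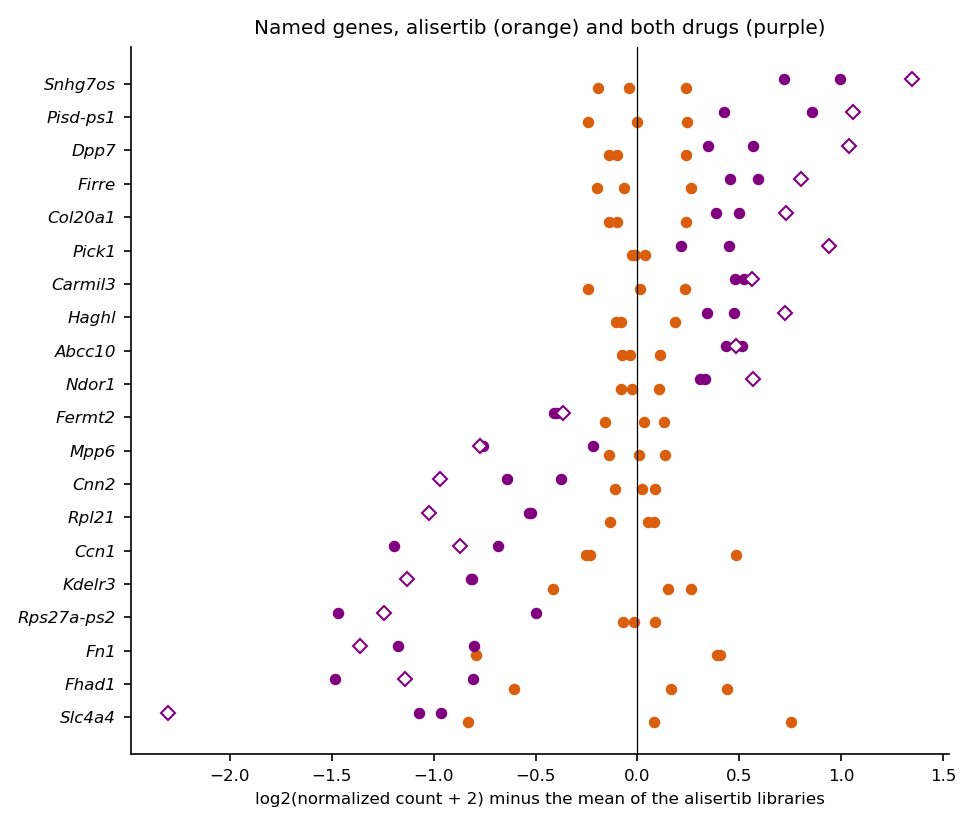
Log2(normalized count + 2) of each library minus the mean of the alisertib libraries, for the 20 named genes; alisertib in orange, both drugs in purple, combination 3 as an open diamond. The libraries do not overlap in any of the 20, by the rule that chose them, and combination 3 is highest of its arm in 9 of the 10 higher genes.

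Of the 30 gene lists described, that of antigen presentation on MHC class I had the most members higher without overlap in the combination. MHC class I molecules show peptides from inside the cell to CD8 T cells. Of 14 listed members 14 were tested; 12 had a positive difference, 7 lay higher without overlap, against 5.08% of all genes, and 0 passed. The median log2 difference was 0.96, and 1.07 without combination 3. Combination 2 had by far the highest sum of the list in its arm, at 80458 against 36515 and 37018. In the navitoclax arm against vehicle the median of the same list was 0.03. Its libraries lay far apart, with sums of 24517, 12268 and 96936, the last 2 being the lowest and the highest of all 12 libraries. That median thus does not show that navitoclax alone left the list unchanged.

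The heavy chain genes are shown by their promoters, because the letters that interferon and NF-kB pathways are known to read lie there. Windows from 250 bases before to 50 after the start, from RefSeq on GRCm38.p6, are printed for the 2 heavy chain genes without overlap, H2-K1 (chr17:34000298-34000597, minus strand) and H2-Q4 (chr17:35379367-35379666, plus strand). Capitals mark GGATTCC, the core of the NF-kB site in the class I enhancer A, and TTCACTT, letters of the interferon response sequence beside it.
H2-K1: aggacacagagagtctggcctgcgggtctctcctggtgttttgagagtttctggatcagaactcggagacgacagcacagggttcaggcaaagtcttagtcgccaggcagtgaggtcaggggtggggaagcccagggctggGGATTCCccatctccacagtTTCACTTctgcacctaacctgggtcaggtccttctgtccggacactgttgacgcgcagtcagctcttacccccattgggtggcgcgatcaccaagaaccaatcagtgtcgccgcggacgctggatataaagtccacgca
H2-Q4: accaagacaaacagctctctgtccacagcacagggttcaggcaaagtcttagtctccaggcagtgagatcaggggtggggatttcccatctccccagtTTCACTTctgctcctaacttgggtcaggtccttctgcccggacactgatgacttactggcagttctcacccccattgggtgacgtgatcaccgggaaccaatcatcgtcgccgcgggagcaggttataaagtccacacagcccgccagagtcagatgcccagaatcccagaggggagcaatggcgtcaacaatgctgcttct
In H2-K1 both stood in the window with 13 bases between them, and the interferon letters began 89 bases before the start. H2-Q4 held the interferon letters, from 152 bases before the start, but not the exact letters GGATTCC. Its window reads ggggatttccc shortly before them, a near match that a search for exact letters does not count. Absence of an NF-kB site from H2-Q4 was thus not shown. Searched on both strands, GGATTCC was in 1245 of 32851 windows (3.79%), those of 1186 of 27025 genes (4.39%). Of the 12 class I list genes with a window it was in 3, H2-K1, H2-D1 and H2-Q7. TTCACTT was in 1532 windows (4.66%), those of 1482 of 27025 genes (5.48%). Of the 12 class I list genes it was in 6, H2-K1, H2-D1, H2-Q4, H2-Q7, Tapbp and Erap1. The motifs do not overlap each other, were chosen after the values were seen, and a match describes letters only. They were taken from class I promoters, so a higher share among class I genes was fixed in advance and tests nothing.

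H2-K1, a classical heavy chain gene, was at 3885, 7663 and 4799 with alisertib and at 7756, 18212 and 9293 with both drugs. The lowest combination library was just above the highest alisertib library, alisertib 2, and the difference was 1.07 ± 0.66 (interval −0.38 to 2.51; adjusted p = 0.681). H2-Q4 (chromosome 17, 35379617 to 35385290, plus strand), a nonclassical heavy chain gene, was at 802, 1496 and 1163 against 1844, 4086 and 2077 (1.16 ± 0.55). Reads of H2 genes, which are close relatives, may be shared between them. Genes of peptide supply were mixed. Tap2, a subunit of the peptide transporter, was at 450, 671 and 686 against 862, 1407 and 1343 (0.99 ± 0.50). Psmb10, an immunoproteasome subunit, was at 1147, 1236 and 1901 against 1948, 2124 and 3409 (0.80 ± 0.37). Tapbp, which loads peptide onto the heavy chain, was at 2242, 2438 and 2695 against 3168, 3964 and 6699 (0.84 ± 0.44).

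Tap1 (0.90 ± 0.59) and Psmb8 (1.57 ± 1.06) completed the 7 without overlap. The immunoproteasome gene Psmb9 overlapped, at 57.9, 219 and 82.3 against 202, 720 and 119 (1.33 ± 1.05). Erap1, which encodes a peptide-trimming enzyme, overlapped at 443, 530 and 391 against 441, 744 and 195 (−0.17 ± 0.48). B2m, the light chain, went against them in combination 3: it was at 4735, 9485 and 3638 with alisertib and at 5887, 15128 and 803 with both drugs, and it was also low in vehicle 2, at 747. The class I sum was 21009, 38785 and 22742 in the alisertib libraries and 36515, 80458 and 37018 in the combination libraries, so the arms overlapped, and combination 2 stood far above. The vehicle libraries had sums of 23639, 32817 and 35513. Combination 1 and 3 were thus only slightly above the highest vehicle library, and alisertib 1 and 3 were below all of them. A library without alisertib was the highest of all, navitoclax 3 at 96936.

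**Figure D4:**
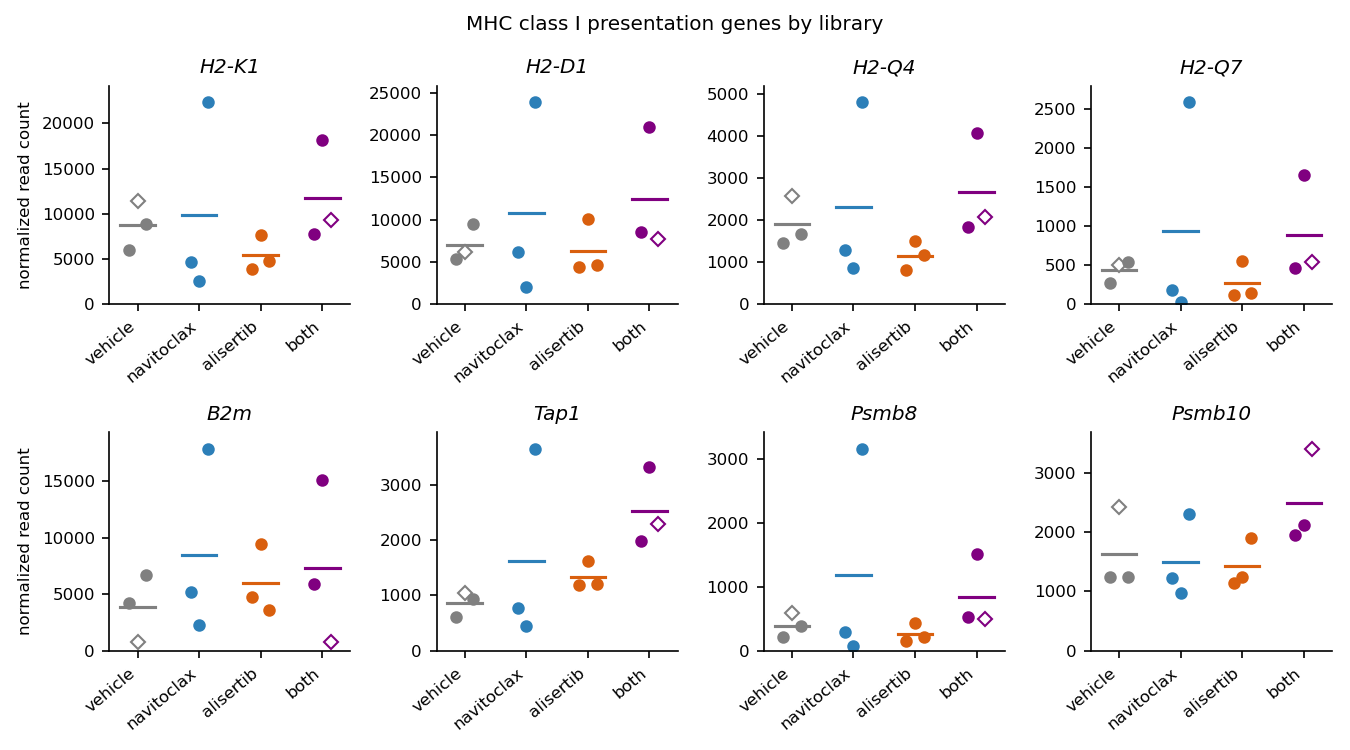
Normalized read counts of 8 MHC class I presentation genes, on linear axes from 0, in the 3 libraries of each arm; points are libraries, bars are means, and open diamonds are vehicle 2 and combination 3. Navitoclax 3 and combination 2 are the highest of their arms in most panels, and B2m is low in both open diamonds.

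Markers of immune cells were set beside these genes, and whether both varied together was not tested. In bulk tumour RNA, more cells of a type and more RNA per cell cannot be told apart. The 8 MHC class II genes were all tested, and 8 of 8 had a positive difference, with a median of 1.39, and 0 were without overlap or past the threshold. The size rested on combination 2: the median was 0.81 without it and 1.84 without combination 3. Cd74, the class II invariant chain, was at 132, 617 and 270 with alisertib and at 321, 3626 and 865 with both drugs; combination 2 was the high one. Ciita, the class II transactivator gene, was at 5.96, 24.5 and 10.3 against 19.4, 156 and 3.62, its highest and its lowest value both with both drugs. The class II sum was 1447 to 3462 in the alisertib libraries and 2643 to 11166 in the combination libraries. Of 20 T and NK cell markers only 5 were high enough to be tested, with a median of 1.59 (0.96 without combination 2; 1.89 without combination 3) and sums of 80.0, 134 and 84.2 against 122, 371 and 170. Prf1, which encodes the pore protein of killer cells, was at 1.70, 7.64 and 1.87 against 12.9, 27.3 and 14.5, low in every library. Its difference of 1.90 ± 0.71 did not pass (limma adjusted p = 0.681). Prf1 and Pdcd1 reached the filter value of 10 only in combination libraries and navitoclax 3. The filter thus kept them through the libraries where they were high, which favours a higher list median.

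Of 20 macrophage and monocyte markers 19 were tested, and their directions were mixed. The difference was positive in 12 and negative in 7, from −1.29 to 1.29, with a median of 0.33. The list had sums of 29989 to 41272 with alisertib and 43470 to 85606 with both drugs. Most of that sum was Apoe, a lipid carrier that melanoma cells also express, at 23807, 26553 and 31987 against 34717, 34584 and 67359 (0.67 ± 0.28, without overlap). The complement gene C1qc overlapped, at 398, 1044 and 846 against 734, 1792 and 3963 (1.29 ± 0.70). Among the 7 negative markers, Cd68 also overlapped, at 860, 1150 and 384 against 678, 908 and 221. The interferon-stimulated list, 25 of 25 tested, had a median of −0.04, and of 0.34 without combination 3, so its direction turned on that library. Rsad2, an antiviral enzyme gene, was its member without overlap (469, 548 and 425 against 717, 576 and 579; 0.38). Dendritic cell markers (4 of 10 tested; median 0.44) and B cell markers (3 of 10; 0.58) were low, and 2 neutrophil, 1 keratinocyte and 0 mast cell markers were tested; 0 of these passed or lay apart. The neutrophil markers Ly6g and Ngp, the B cell marker Ms4a1 and the mast cell markers Fcer1a and Ms4a2 were at 0 in all 6 libraries. The keratinocyte genes Krt14, Krt5 and Krt10 did not reach the filter, yet stood at 86.9, 65.1 and 50.7 in combination 3. In every other library they were at 0 to 2.81. The keratinocyte sum was 279 in combination 3 and 54.5 to 118 in the others, and its source was not tested. The part of immune cell content in the class I values was not tested.

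Platelets die when BCL-xL is blocked, so their markers were described as well. Of 20 platelet and megakaryocyte genes 13 were tested and 0 passed, with a median of 0.11 and of −0.20 without combination 3, and Clec1b and Gp9 were at 0 in all 6 libraries. Itga2b, the platelet integrin chain, was higher without overlap but low (83.4, 90.9 and 85.2 against 111, 107 and 177; 0.56 ± 0.38). The erythroid list (8 of 12 tested) had a median of −0.64 and sums of 2041 to 6614 against 1456 to 3086, with overlap.

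Lower medians were found for hypoxia, vessels and the stress response. Of 18 hypoxia and glycolysis genes tested, 17 had a negative difference, with a median of −0.49 (−0.39 without combination 3, −0.31 without combination 2 and −0.29 without alisertib 1), yet 0 passed and 0 were without overlap. Bnip3, a mitophagy receptor induced by low oxygen, was at 6868, 5413 and 3030 with alisertib and at 3772, 1926 and 1089 with both drugs (−1.28 ± 0.41; −0.84 without combination 3). Ndrg1 was at 8672, 7210 and 4422 against 4541, 2918 and 2968 (−0.94 ± 0.28), and Car9, which encodes the carbonic anhydrase of hypoxic tumours, was at 11493, 9520 and 4737 against 7219, 2803 and 4234 (−0.87 ± 0.36). In each of them alisertib 3 lay below combination 1, and the other alisertib libraries lay above all 3 combination libraries.

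Of 15 endothelial markers tested 11 had a negative difference (median −0.39; −0.46 without combination 3 and −0.16 without combination 2), 2 were lower without overlap, against 5.2% of all genes, and 0 passed. These were Cdh5, the adhesion molecule of vessel walls (660, 892 and 560 against 542, 439 and 185; −0.97 ± 0.40), and the transcription factor gene Erg (43.4, 77.2 and 41.2 against 37.0, 31.5 and 3.62; −1.47 ± 0.68). The sum of the list, 16997 to 19737 against 15142 to 20458, overlapped. Of 17 fibroblast and matrix genes Fn1 was the 1 without overlap; the median was −0.06, and the sum was 92756 to 146370 with alisertib and 83270, 88394 and 258890 with both drugs. Col1a1, the fibrillar collagen gene, carried that last value, at 99987 in combination 3. It was also high in vehicle 2, at 64475, against 3406 and 6475 in the other vehicle libraries.

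Of 22 genes of the unfolded protein and integrated stress responses 0 passed, with a median of −0.27 (−0.10 without combination 3) and 3 lower and 1 higher without overlap, against 5.2 and 5.08% of all genes. Atf4, the transcription factor of the integrated stress response, was at 4257, 3847 and 4183 with alisertib and at 3475, 3612 and 2114 with both drugs (−0.46 ± 0.28). Trib3, a pseudokinase gene that ATF4 induces, was at 371, 404 and 270 against 254, 177 and 203 (−0.71 ± 0.51). Ddit3, which encodes CHOP, overlapped at 1331, 1226 and 949 against 979, 888 and 492 (−0.62). The 18 melanocyte genes, which mark the tumour cells, were all tested and had a median of −0.10, and of 0.10 without combination 3. Sox10, a lineage transcription factor, was at 17341, 15169 and 18921 against 18937, 19044 and 21797 (0.22 ± 0.15), and Ednrb, the endothelin receptor of melanocytes, was at 270, 395 and 282 against 223, 180 and 152 (−0.76 ± 0.25). Pmel, a melanosome protein, was abundant in all 6 libraries, at 148800 to 203020.

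The remaining lists were mixed. Of 20 lysosome genes 3 were higher without overlap, against 5.08% of all genes, among them the protease gene Ctsd (17066, 18594 and 19233 against 23491, 22788 and 44223; 0.65 ± 0.30), and the median was 0.05. Cholesterol and fatty acid synthesis (20 genes) had a median of 0.06. The skeletal muscle list (15 of 16 tested) had a median of 0.46, and of −0.27 without combination 3, with sums up to 1719 in alisertib 3 and 1762 in combination 3. The adipocyte list (11 of 12) had 9 negative differences and a median of −0.63. Its sign turned on single libraries, with medians of 0.27 without alisertib 2 and 0.22 without combination 1, and −0.44 without combination 3. The adipokine gene Cfd was at 65.5, 528 and 4.68 with alisertib and at 2.77, 390 and 18.1 with both drugs. The mitochondrially encoded genes (8 of 13) were nearly absent from all 6 libraries, with sums of 47.0 to 235. No member of any list passed the threshold.

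**Figure D5:**
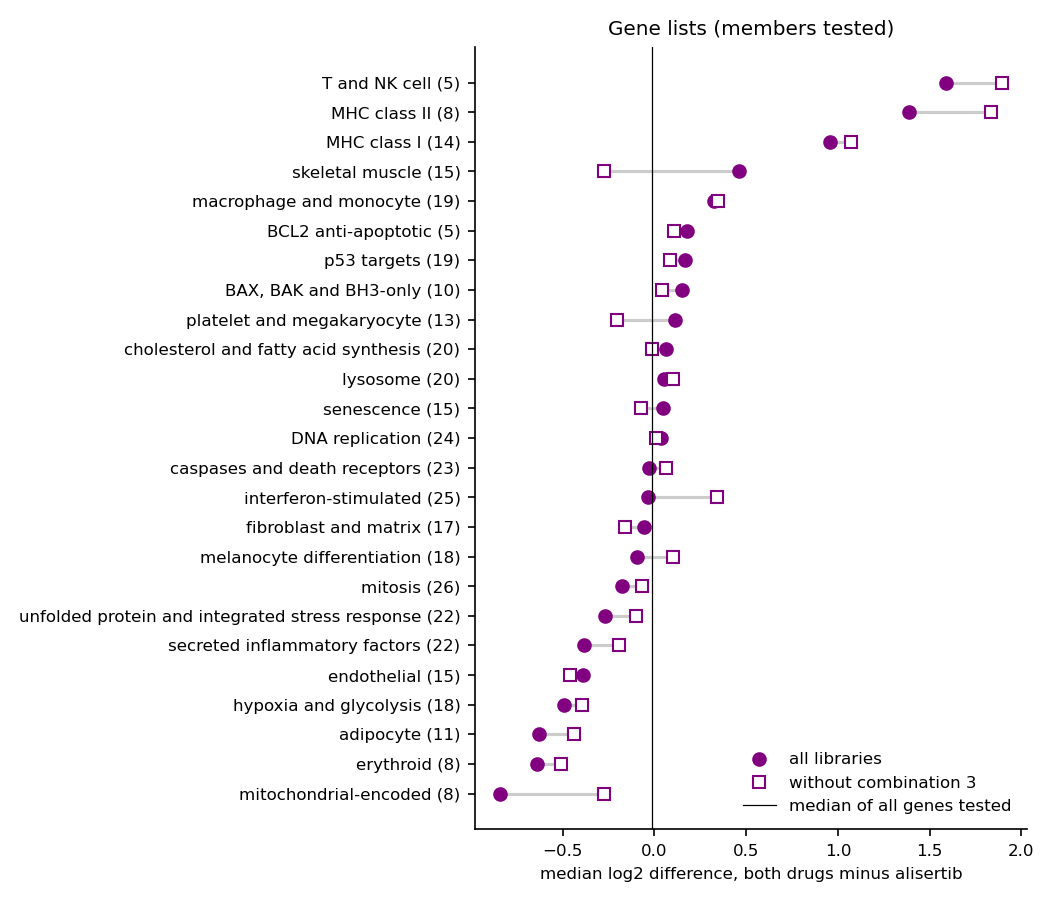
Median log2 difference of both drugs minus alisertib for each list with at least 5 tested members (number in brackets), with all libraries (filled circles) and without combination 3 (open squares); the line is the median of all genes tested. MHC and T and NK cell lists lie highest in both. The interferon-stimulated, skeletal muscle, platelet, melanocyte, senescence and caspase lists cross the line when combination 3 is left out. Some T and NK cell members passed the filter only through combination libraries and navitoclax 3.

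Navitoclax without alisertib was set beside it to see which genes the drug moved on its own. Against vehicle, which shares no library with the comparison above, 11 genes passed in limma (0.0647%), all lower, with 1083 at an unadjusted p under 0.05 (6.37%). Of these 11, 10 were already lower without overlap in the alisertib libraries than in the vehicle libraries. The same vehicle libraries served to choose the 11, which favours this order, and the share of all genes with it was not counted. When navitoclax was added to alisertib the log2 differences of the 11 ran from −0.86 to 0.84 with a median of −0.20. Of the 11, 2 were without overlap, against 10.3% of all genes, and none passed. Navitoclax 1 stood apart by its skeletal muscle genes, with a sum of 149950 against 413 to 1245 in the other vehicle and navitoclax libraries, and the part of muscle in these calls was not tested. The 11 calls rested on several libraries: the count was 2 without vehicle 1 or 3, navitoclax 1 or 3 or alisertib 1, 3 without vehicle 2 or alisertib 2 or 3, and 20 without navitoclax 2.

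Avil (ENSMUSG00000025432.11; chromosome 10, 127000709 to 127020994, plus strand), which encodes the actin-severing protein advillin, shows the pattern. It was at 375, 292 and 291 in the vehicle libraries and at 28.1, 44.3 and 19.0 with navitoclax alone, and it fell by 3.37 ± 0.32 on the log2 scale (adjusted p = 0.00422). With alisertib alone it was already at 25.5, 22.9 and 24.3. With both drugs it was at 41.6, 35.8 and 61.5, above all alisertib libraries, a difference of 0.84 ± 0.32 that did not pass (adjusted p = 0.681). The effect of navitoclax with alisertib minus that without it was 4.21 ± 0.45 on the log2 scale (adjusted p = 0.0198), the 1 gene of 16993 past the threshold (0.00588%) in limma, with 1449 (8.53%) at an unadjusted p under 0.05. The call was not kept without vehicle 1, 2 or 3, alisertib 1, 2 or 3, combination 1 or navitoclax 1 (adjusted p up to 0.133), nor without both ribosome-rich libraries, while the difference itself ranged from 3.94 to 4.51.

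The other genes named here fell with navitoclax alone as well. Sspo, which encodes the brain matrix protein SCO-spondin, had means of 932 ± 213 (SD, n = 3) in vehicle, 52.3 ± 25.6 with navitoclax, 29.1 ± 7.81 with alisertib and 29.6 ± 9.16 with both drugs. Otog, an inner ear glycoprotein gene, had 235 ± 27.1, 7.98 ± 4.32, 2.95 ± 2.56 and 2.13 ± 1.89, the last pair at the level of a few reads. Fgf21, a stress-induced hormone gene, had 668 ± 287, 34.7 ± 24.3, 4.62 ± 1.78 and 3.96 ± 3.28. Abca4 (203, 21.6, 24.3 and 21.6) and Tenm4 (1017, 185, 95.2 and 66.9) followed the same order of vehicle above the 3 drug arms. Plekha6, with a pleckstrin homology domain, differed from them. It was at 334, 385 and 199 in vehicle and 63.7, 54.6 and 75.4 with navitoclax, but at 228, 173 and 163 with alisertib and 197, 152 and 315 with both drugs. It fell by 2.17 ± 0.32 with navitoclax alone (adjusted p = 0.0393), and on alisertib the difference was 0.18 ± 0.32. The interaction of 2.35 ± 0.45 did not pass (adjusted p = 0.436), so the effects were not shown to differ. The interaction did not pass either for Sspo (4.24 ± 0.58; adjusted p = 0.12), Otog (4.45 ± 0.79), Abca4 (2.87 ± 0.54) or Col20a1 (1.29 ± 0.23), which followed Avil by smallest p (adjusted p = 0.436 for the last 3).

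Across all 16993 genes, the differences made by navitoclax with and without alisertib correlated with r = −0.26 (Spearman rho −0.39), given as a description, since genes share libraries. The sign rested on combination 3: r was 0.04 without it and 0.10 without both ribosome-rich libraries. Of 1469 genes lower without overlap with navitoclax alone (8.64% of those tested), 51 (3.47%) were lower and 132 (8.99%) higher without overlap when it was added to alisertib, against 5.2 and 5.08% of all genes. Of 1104 genes higher with navitoclax alone (6.5%), 20 (1.81%) were higher and 70 (6.34%) lower on alisertib. The median difference of the lower and higher sets on alisertib was 0.14 and −0.20, and 0.02 and −0.01 without combination 3.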

How the data were processed

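RNA was sequenced from B16F10 tumours in 4 arms of 3 libraries. The libraries were directional and made after removal of ribosomal RNA, per the labels' protocols. Tools in the submitters' processing notes are DESeq2, Subread 1.5.1, featureCounts and HISAT2 2.0.6; builds are mm10 and GRCm38.p4. The notes do not say which step each served. The authors deposited a normalized signal per gene and library: every value was a whole multiple of 1 step per library within 0.001 (100% of values), as for read counts divided by a size factor. Whole reads were recovered by dividing by that step. Arms were taken from the treatment in the labels. Replicate numbers are accession order within an arm and pair nothing. Navitoclax 3 was matched by its library code, since another part of its column name differs from its title.

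Of 50600 genes, 29711 had a read, and 16993 that reached a value of 10 in 3 or more of the 12 libraries were tested. limma 3.58.1 in R 4.3.3 was fitted to log2(value + 2) with a mean per arm over all 12 libraries and trended, robust moderation. Adjusted p is Benjamini-Hochberg over all genes tested, with a threshold of 0.05. Log2 differences carry standard errors and understate changes of low genes; SDs are over 3 libraries. edgeR 4.0.16, DESeq2 1.42.0 and limma-voom on recovered reads were alternatives, as were other filters, pseudocounts of 0.5 and 8, other scaling, a ribosomal covariate and each library left out. The scripts were tested on simulated data with the same dispersion for every gene. For the combination minus alisertib over 16993 genes, edgeR recovered 88% of 4-fold changes, DESeq2 91% and voom 91%.

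Symbols and coordinates came from GENCODE M21 (GRCm38) by identifier, which matched 50376 genes; 92 symbols are shared by several identifiers. The strand setting of the counting is not given in the sources used here. Members and all 30 gene lists were chosen with earlier results of these data known. Named genes were Aurka, Bcl2, Bcl2l1, Bcl2l2, Mcl1 and Cdkn1a; the 10 per direction with the smallest p without overlap and a mean of at least 50, since fewer than 3 passed; up to 4 members of a list by smallest p; the 5 with the smallest p in the interaction; and up to 8 called with navitoclax alone. Other genes in the text, such as H2-K1, Tap1, Psmb8, B2m, Cd74, Rsad2, Bax, Bak1, Pmel and Sox10, were added after their values were seen.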

Additional observations from a re-analysis of the deposited data

Results flagged for a closer look

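Avil met the rule for an effect that differs between conditions. Navitoclax changed its log2 level by −3.37 without alisertib and by 0.84 with it, and the difference of 4.21 ± 0.45 passed in limma (adjusted p = 0.0198). Both arms with alisertib and the navitoclax arm held values of 19.0 to 61.5, against 291 to 375 in the vehicle libraries. The call was lost when any vehicle or any alisertib library, combination 1 or navitoclax 1 was left out.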

How the results depend on the processing

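For the combination minus alisertib, 0 genes passed under every alternative run, with smallest adjusted p-values from 0.0721 (voom) upwards. The number of genes whose 3 combination and 3 alisertib libraries do not overlap was 1747, and 1759 with the other size factors and 1182 with a mean of at least 50, where fewer genes are tested; their count with a library left out was not run. The 11 genes called for navitoclax minus vehicle became 87 in DESeq2, 38 in voom, 20 with the ribosomal covariate, 21 at a pseudocount of 8, 3 at 0.5, 3 with a mean of at least 50 and 0 with only the groups compared in the fit. They were 2 to 20 with 1 library left out. The interaction count of 1 became 10 in DESeq2, 3 in voom, 3 at a pseudocount of 8 and 0 without both ribosome-rich libraries, and was 0 to 1 with 1 library left out. The interaction has no value with only the groups compared, since it needs all arms. The causes were not tested. Of 139 named genes, 10 changed sign without combination 3, as did 7 of 27 list medians. The 20 genes chosen without overlap are among the 139 and could not change sign. Ribosomal reads limit the depth of combination 3 to 7.08 M other reads. No paired analysis was possible because the labels number no replicates.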
